A study of Homo sapiens with 6 samples.

Results

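Collagens are the fibres, nets and filaments of the extracellular matrix. Each molecule is a triple helix of alpha chains, built either from copies of 1 chain or from different chains that assemble in the endoplasmic reticulum, where prolyl and lysyl residues are hydroxylated before secretion. Fibroblasts and smooth muscle make most of the fibrillar collagen of the gut wall. The genes described here are those whose symbol is COL, a type number, A and a chain number with nothing after it. The count tables list 44 of them among 28278 symbols, from 28 collagen types, and antisense, divergent and pseudogene symbols of collagen loci are not among them.

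The RNA came from RKO, a human colon carcinoma line, with 3 libraries of cells carrying wild-type GSK3B and 3 of cells labelled GSK3B knockout. GSK3B is a serine/threonine kinase that marks beta-catenin for destruction. The wild-type and knockout cells share the RKO background and are given no treatment or time in the labels, which also do not say whether the knockout line is a clone or a pool or how it was made. Nor do they state that replicates came from different cultures, so the p-values measure the spread between these libraries, which may be technical.

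The libraries held 32379369 to 33558362 counts, and collagen genes took 5749 to 6462 of them. GSK3B itself was at 91.4 to 99.0 CPM (counts relative to library size, scaled by the trimmed mean of M-values) in wild type and at 46.0 to 47.5 CPM in the knockout, so the transcript was lower but still read (log2 fold change -1.04 ± 0.05 SE, n = 3 per group, edgeR adjusted p = 1.88e-12). Of 9 epithelial and colonic markers, CDX2, VIL1, KRT8 and KRT18 were at 15.4 to 76.1 CPM in every library, EPCAM was at 2.40 to 4.28 CPM in wild type and 1.04 to 1.11 CPM in the knockout, KRT19 had at most 0.152 CPM, and CDH1, CDX1 and LGALS4 were at 0. A gene listed at 0 may still be expressed, because FBL, NDUFS1 and EEF1B2, which dividing cells use, are also listed at 0 in all 6 libraries. Where counting error is the only limit, a count of 0 allows a level of up to 3 counts, which is 0.0901 to 0.0933 CPM by library.

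Collagen expression in RKO was concentrated in few chains. COL27A1, COL9A3 and COL6A1 together took 87.4% to 90.8% of all collagen counts in each library. Of the 44 genes, 36 had at least 1 count somewhere, 23 reached a total of 10 over the 6 libraries, and 11 passed the filter on low counts and were tested. The other 33 comprised 8 at 0 in every library, 13 with a total of 1 to 9 and 12 with a total of 10 or more that did not pass.

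By class, the 11 fibrillar genes gave 5 tested members, COL27A1, COL11A2, COL5A2, COL5A1 and COL1A1. The 5 chains of beaded-filament collagen VI gave COL6A1 and COL6A3. The 10 genes of fibril-associated collagens with interrupted helices (FACIT) gave COL9A3 alone. COL7A1 of the anchoring fibrils that tie epithelium to stroma, COL13A1 of the 4 transmembrane collagens and COL18A1 of the 2 multiplexins, whose C-terminal fragment is endostatin, were also tested. None of the 6 chains of basement membrane collagen IV passed the filter, and their counts summed to 2 to 12 per library. The remaining network collagens VIII and X, with 3 genes, summed to 0 to 17 counts.

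Levels between genes were compared per length, as RPKM (CPM per kilobase of annotated exons), and values per library are given in the order of replicates 1 to 3. COL9A3, a chain of the FACIT collagen IX, was highest, with 8.12, 7.98 and 8.32 RPKM in wild type and 7.82, 7.54 and 7.54 RPKM in the knockout. COL27A1, a fibrillar chain that forms homotrimers and is best known from cartilage, had 6.48, 6.84 and 7.17 RPKM in wild type and 7.03, 6.96 and 7.20 RPKM in the knockout. COL6A1 followed with 4.96, 4.98 and 5.96 RPKM in wild type and 4.67, 4.86 and 4.94 RPKM in the knockout. These genes kept the same order in every library, and neighbours in it did not overlap within either group.

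**Figure D1:**
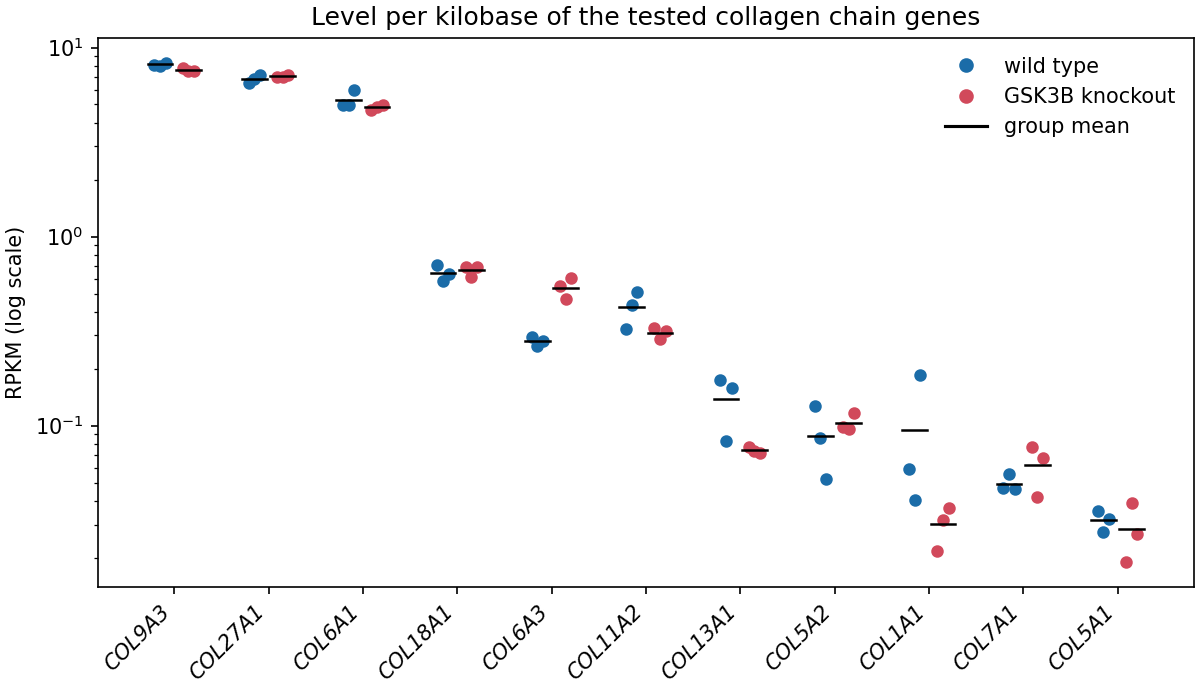
Level of the 11 tested collagen chain genes in RPKM on a log axis, 1 point per library (blue wild type, red knockout), with a black line at the mean of each group. COL9A3, COL27A1 and COL6A1 lie well above the other chains, and COL6A3 is the gene whose 3 knockout points all stand clearly above its wild-type points.

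A gap separated these from COL18A1, which averaged 0.642 ± 0.0628 RPKM in wild type and 0.665 ± 0.0458 RPKM in the knockout (SD, n = 3). In wild type COL11A2, a chain of fibrillar collagen XI, stood at 0.424 ± 0.0944 RPKM and COL6A3 at 0.280 ± 0.0147 RPKM (SD, n = 3). By this length their order was the reverse in the knockout, with COL6A3 at 0.538 ± 0.0676 RPKM and COL11A2 at 0.311 ± 0.0225 RPKM (SD, n = 3). COL13A1, COL5A2, COL1A1, COL7A1 and COL5A1 averaged at most 0.139 RPKM in each group. Among these low genes the wild-type ranges of COL13A1 and COL5A2, of COL5A2 and COL1A1, and of COL1A1 and COL7A1 overlapped, so their order there was not resolved. In the knockout none of these pairs overlapped, with COL5A2 above COL13A1 and COL7A1 above COL1A1. The knockout ranges of COL13A1 and COL7A1 did overlap, as did those of COL1A1 and COL5A1, so the order of those was not resolved. The order within a group depends on the length used. With the longest annotated transcript, COL6A3 was above COL11A2 in wild type too, at 0.511 ± 0.0269 against 0.445 ± 0.0990 RPKM (SD, n = 3, with overlapping ranges), so their order did not reverse between the groups. In the knockout that length put COL6A3 above COL18A1, at 0.983 ± 0.123 against 0.861 ± 0.0593 RPKM with overlapping ranges, and COL13A1 above COL5A2, at 0.137 ± 0.00570 against 0.109 ± 0.0122 RPKM (SD, n = 3). The means over all 6 libraries kept their order with either length, though COL9A3 averaged 15.3 RPKM in place of 7.88.

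For some of the abundant chains, the partners they are known to assemble with had few or no counts. Collagen IX is known as a heterotrimer of 3 different chains, and while COL9A3 had 1174 to 1341 counts per library, COL9A2 had 1 to 4 and COL9A1 was listed at 0 in all. Collagen VI is known to need the chains of COL6A1, COL6A2 and another, longer chain, usually that of COL6A3. COL6A1 had 820 to 1061 counts per library, while COL6A2 was listed with 1, 0 and 4 counts in wild type and 0, 1 and 0 in the knockout. Both genes lie on chromosome 21 (hg38), COL6A1 at 45981737 to 46005050 and COL6A2 at 46098097 to 46132849. COL11A1 and COL2A1, the partners of COL11A2 in collagen XI, each totalled 3 counts. These are transcript counts, and the chains themselves were not measured.

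The comparison of the groups asked which collagen transcripts differ between the wild-type cells and those labelled GSK3B knockout. Whether a difference came from loss of GSK3B or from another difference between the cells was not tested. COL6A3, the long chain of collagen VI with many von Willebrand factor A domains, rose in the knockout and was the member with the firmest difference. It had 5.77, 5.20 and 5.52 CPM in wild type and 10.7, 9.17 and 11.8 CPM in the knockout. Every knockout library was above every wild-type library, and the lowest knockout value exceeded the highest wild-type value by more than the spread within either group. The rise was 1.92-fold (95% interval 1.63 to 2.27), or 0.94 ± 0.12 on the log2 scale (SE, n = 3 per group), with a Benjamini-Hochberg adjusted p = 5.13e-06 in edgeR's quasi-likelihood fit, from which all adjusted p-values below come unless another tool is named. In bulk RNA, a change in the share of cells expressing a gene and a change in its RNA per cell cannot be told apart. COL6A3 had the 10th largest log2 rise among the 917 genes called higher.

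COL6A1, its partner chain, did not rise. It stood at 26.5, 26.6 and 31.9 CPM in wild type and at 24.97, 25.99 and 26.4 CPM in the knockout. The knockout values lay just below the wild-type ones, and wild-type replicate 3 stood above the rest. The fold was 0.910 (95% interval 0.818 to 1.01; edgeR, adjusted p = 0.244). Per length, COL6A1 exceeded COL6A3 by 16.9, 18.8 and 21.2 times in wild type and by 8.56, 10.4 and 8.22 times in the knockout. The log2 ratio of COL6A3 to COL6A1 was 1.06 higher in the knockout, with no overlap of the groups. A two-sided exact permutation of the libraries gave p = 0.1, which is as low as 3 against 3 can reach (0.2 after Benjamini-Hochberg adjustment over 2 pairs of chains). The other chains of collagen VI were at or near 0: COL6A5 had no count, and COL6A6, too low to test, had 1, 4 and 0 counts in wild type and 5, 7 and 6 in the knockout, so its groups did not overlap.

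**Figure D2:**
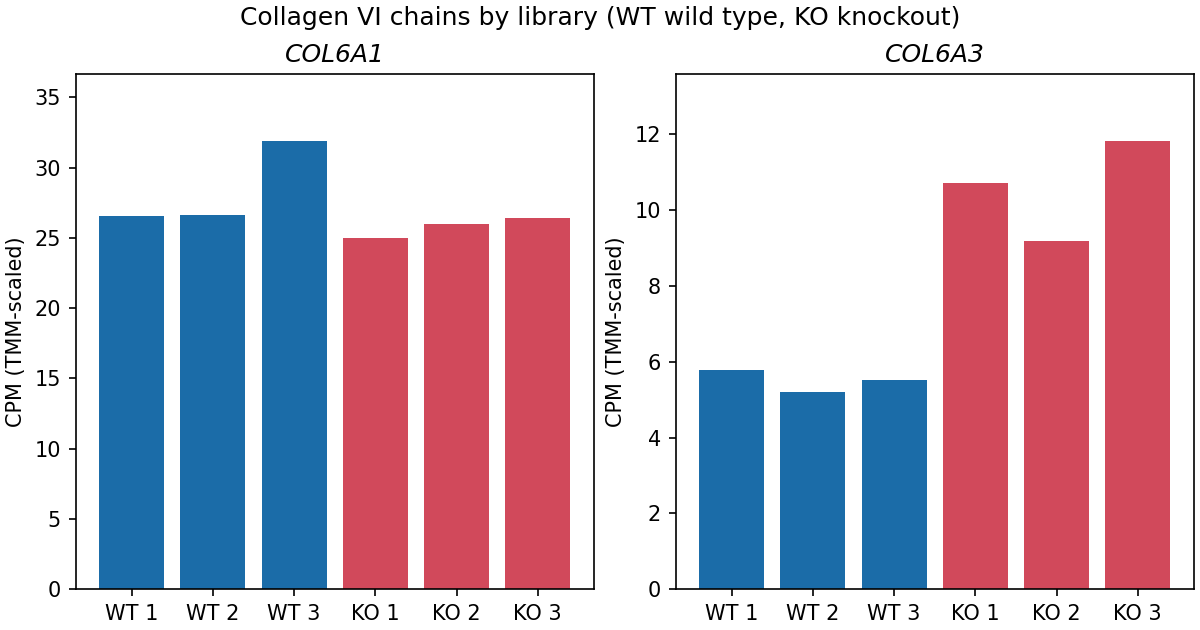
Level of COL6A1 (left) and COL6A3 (right) in CPM for each library, wild type in blue and knockout in red, on axes that start at 0. COL6A3 stands at 5.20 to 5.77 CPM in wild type and 9.17 to 11.8 CPM in the knockout, while COL6A1 stays between 24.97 and 31.9 CPM.

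COL6A3 lies on the minus strand of chromosome 2 (237324003 to 237414375, hg38), and none of its annotated exons overlaps another gene. Of 13 other tested genes within 1 Mb of it, 2 were called lower, where 7.18% of all tested genes were. They were the receptor activity-modifying protein gene RAMP1 at -1.02 (adjusted p = 2.71e-05) and the espin-like gene ESPNL at -0.88 (adjusted p = 0.00164) on the log2 scale. The remaining neighbours had log2 fold changes of -0.24 to 0.17 and did not pass.

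COL1A1, the major chain of fibrillar collagen I, on the minus strand of chromosome 17 (50183289 to 50201632, hg38), was the only member called lower, and this call did not survive leaving out any of 4 libraries. The gene had 19, 13 and 61 counts in wild type and 7, 10 and 12 in the knockout. The groups did not overlap, but wild-type replicate 3 held 49.6% of the gene's summed CPM. The log2 fold change was -1.66 ± 0.50 (SE, n = 3 per group; edgeR, adjusted p = 0.0285). Without wild-type replicate 3 it was -0.72 and did not pass (edgeR, adjusted p = 0.389). It also did not pass without knockout replicate 1, 2 or 3 (adjusted p = 0.122, 0.0860 and 0.0591) or in limma-voom (adjusted p = 0.0862), and DESeq2 gave it no adjusted p (unadjusted p = 0.00370).

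In all, 1 of 11 tested collagen genes was called higher, where 6.36% of all 14409 tested genes were, and 1 was called lower, where 7.18% were. A share of 2 in 11 was thus near the 13.5% of all tested genes called in either direction. At an unadjusted p under 0.05 edgeR had 1 member higher and 3 lower (9.09% and 27.3%), beside 13.9% and 14.1% of all tested genes. The groups did not overlap in 4 members with lower knockout values, COL1A1, COL13A1, COL6A1 and COL9A3, which is 36.4% beside 15.9% of all tested genes, and in 1 with higher values, COL6A3, beside 15.4%. The median log2 fold change of the 11 was -0.09, and that of all tested genes was 0.00067. The members' median turned to 0.03 with a correction for GC content and to 0.02 without knockout replicate 1, so no direction is given for the family.

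**Figure D3:**
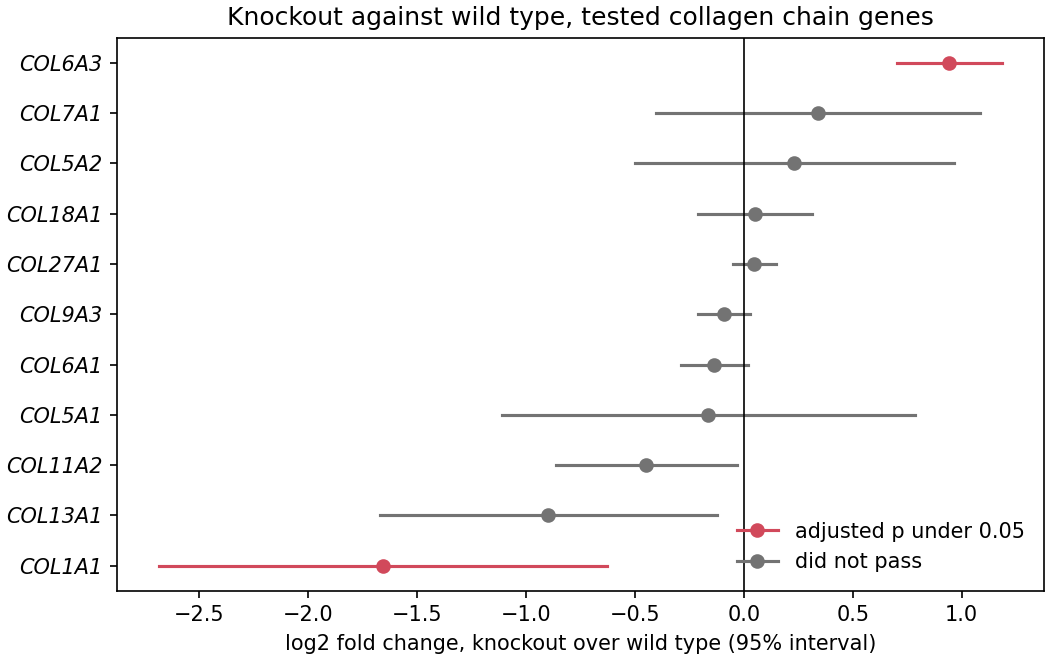
Log2 fold change of the knockout over wild type for the 11 tested collagen genes, with 95% intervals from edgeR's quasi-likelihood fit. COL6A3 at 0.94 and COL1A1 at -1.66 (red) passed at an adjusted p under 0.05, and the interval of COL1A1 is much the wider.

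The abundant chains differed little between the groups. On hg38 COL27A1 spans 114155560 to 114312511 of chromosome 9 and COL9A3 62816244 to 62841159 of chromosome 20, both on the plus strand. COL27A1 was at 90.6, 95.7 and 100.3 CPM in wild type and 98.3, 97.4 and 100.7 CPM in the knockout. Its ranges overlapped, and the fold was 1.03 (95% interval 0.967 to 1.11; edgeR, adjusted p = 0.553). With the correction for GC content it was called higher, at 0.15 on the log2 scale (adjusted p = 0.00180). COL9A3 had 39.3, 38.6 and 40.3 CPM in wild type and 37.9, 36.5 and 36.5 CPM in the knockout. All its knockout values were below the wild-type ones, by a small amount, at 0.938-fold (95% interval 0.863 to 1.02; adjusted p = 0.312), and its log2 fold change of -0.09 turned to 0.03 with the GC correction. COL18A1 stood at 6.05, 4.98 and 5.40 CPM in wild type and at 5.91, 5.22 and 5.89 CPM in the knockout, with overlapping groups and a fold of 1.04 (95% interval 0.863 to 1.24; adjusted p = 0.838). Its annotated exons share 1401 bases with SLC19A1 on the opposite strand, and without a stated strand setting those reads cannot be told apart.

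The intervals of COL27A1, COL9A3, COL6A1 and COL18A1 all exclude a change as large as that of COL6A3. COL13A1, a transmembrane collagen of cell contacts, did not pass the test. It had 34, 16 and 31 counts in wild type and 15, 14 and 14 in the knockout. Wild-type replicate 2 was close to the knockout libraries and the other wild-type libraries were about as high as each other, with a fold of 0.537 (95% interval 0.314 to 0.917; edgeR, adjusted p = 0.115). COL11A2 had 2.19, 2.93 and 3.45 CPM in wild type and 2.22, 1.93 and 2.13 CPM in the knockout. Its groups overlapped through wild-type replicate 1, without which it passed at -0.61 on the log2 scale (adjusted p = 0.0397, against 0.146 with all libraries).

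For the low chains of fibrillar collagen V, the regulator of collagen I fibril width, and of collagen VII the depth did not resolve a difference. COL5A1 had 13, 10 and 12 counts in wild type and 7, 14 and 10 in the knockout, with a 95% interval of the fold from 0.463 to 1.73. COL5A2 had 31, 21 and 13 counts in wild type and 24, 23 and 29 in the knockout, with an interval from 0.707 to 1.95. COL7A1 had 17, 20 and 17 counts in wild type and 28, 15 and 25 in the knockout, with an interval from 0.755 to 2.12. In each the groups overlapped. The log2 ratio of COL5A2 to COL5A1 differed by 0.46 between the groups, within its spread (two-sided exact permutation p = 0.4).

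Several collagen genes were carried by a single library, taken here as a total of at least 10 counts with over 50% of the summed CPM in 1 library. There were 4 among the 23 collagen genes with such a total (17.4%), beside 215 of all 16564 genes with such a total (1.3%). Of the 215, 188 had totals of 10 to 24, and the 16564 include genes of any higher total. For all 4 collagen genes the library was wild-type replicate 3. COL1A2, the second chain of collagen I, had 23 counts there, 1 in knockout replicate 1 and 0 in the other 4 libraries. COL3A1, the chain of fibrillar collagen III, had 18 there and 2 in wild-type replicate 2. COL12A1, a FACIT chain that decorates collagen I fibrils, had 14 there and 1 in knockout replicate 1, and COL8A1, a short network chain, had 8 there and 2 in knockout replicate 2.

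Such genes occurred throughout the tables at these depths. Of 1176 genes with totals between 10 and 24, 188 (16%) were carried by a single library, beside 4 of 11 collagen genes in that range (36.4%). The range was set by the totals of these 4 collagen genes, so all 4 lie in it by construction. The shares are therefore not a like comparison. The library was wild-type replicate 3 for 22.9% of the 188, and for 4 of 4 collagen genes. Below 10 counts, the members with all their counts in wild-type replicate 3 were COL4A2 with 4, COL2A1 with 3 and COL4A5 with 1. Others had all of theirs elsewhere: COL15A1 with 2, COL25A1 with 2 and COL19A1 with 1 in wild-type replicate 1, COL22A1 with 2 in wild-type replicate 2, COL26A1 with 2 in knockout replicate 1, and COL28A1 with 4 and COL21A1 with 2 in knockout replicate 2.

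Of 10 fibroblast and mesenchymal markers, DCN and SPARC had nearly all their counts in wild-type replicate 3. LUM and POSTN had only 2 counts each, all in that library, which is too few to place them. The other markers were not confined to it. DCN, LUM, POSTN and SPARC, picked after their values were seen, summed to 0, 2 and 41 counts in wild type and to 0 in each knockout library. DCN, the collagen-binding proteoglycan decorin, had 25 counts in wild-type replicate 3, and SPARC had 12. PDGFRA had 4, 13 and 6 counts in wild type and 3, 5 and 3 in the knockout, THY1 had 2, 3 and 3 and then 1, 3 and 0, and FBN1 had 17, 22 and 25 and then 23, 23 and 28. FAP had no count. The list of 10 summed to 40.3 to 40.9 CPM in wild type and 32.4 to 36.8 CPM in the knockout. Most of that sum was VIM, at 38.6, 37.0 and 36.0 CPM in wild type and 35.2, 30.8 and 32.3 CPM in the knockout. Among its 3 tested genes PDGFRB was called lower and went from 1.92 ± 0.276 to 0.711 ± 0.131 CPM (SD, n = 3; edgeR, adjusted p = 9.20e-04), and its wild-type libraries lay between 1.61 and 2.14 CPM. The part of other cells' RNA in the counts of COL1A1, COL1A2, COL3A1, COL12A1 and COL8A1 was not tested.

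**Figure D4:**
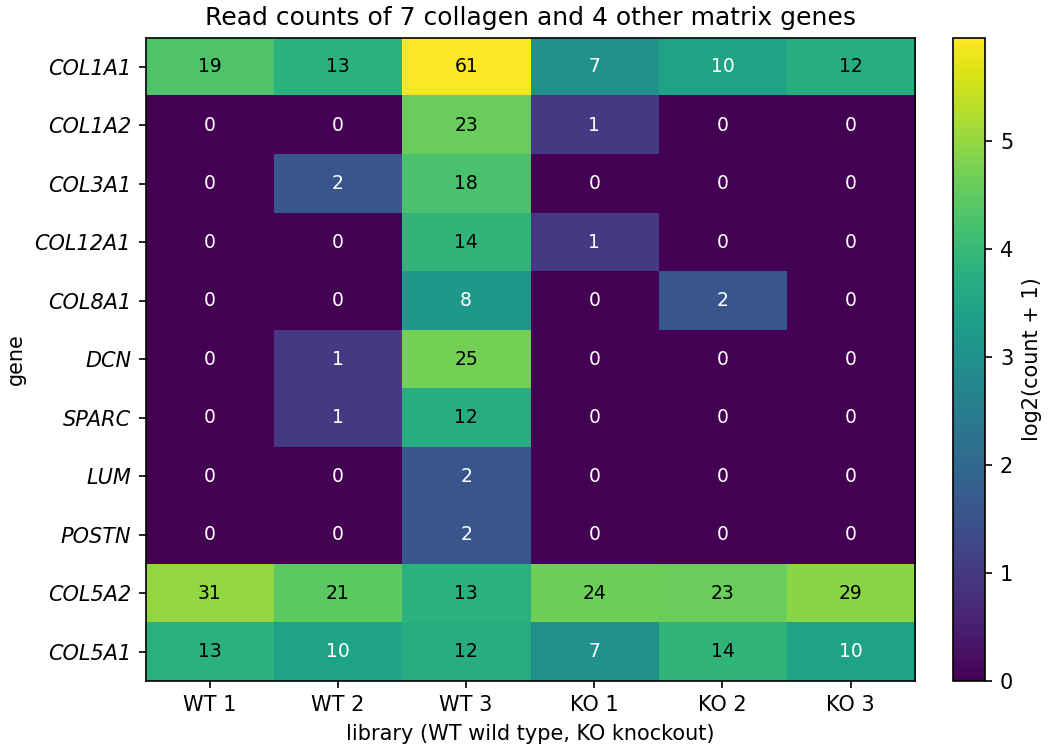
Counts in each library of 7 collagen genes and of DCN, SPARC, LUM and POSTN, printed in each cell and coloured by log2(count + 1). COL1A2, COL3A1, COL12A1 and COL8A1 have most of their counts in wild-type replicate 3, as do DCN and SPARC, while COL5A2 and COL5A1 are spread over all libraries.

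Not every stromal chain followed this library. COL5A2 and COL3A1 are neighbours on chromosome 2, with COL3A1 at 188974320 to 189012746 and COL5A2 at 189031896 to 189225312. COL5A2 had its lowest count, 13, in the library that held 18 of the 20 counts of COL3A1. Markers of other cells in which collagens are prominent were scarce: 5 endothelial markers summed to 2 to 8 counts per library, 3 basal keratinocyte markers to 0 or 1, 4 leukocyte markers to at most 2, and 5 cartilage markers to 16 to 37, with ACAN and COMP at 0. The 6 smooth muscle and pericyte markers summed to 63.8 to 65.2 CPM, of which TAGLN made 52.2 to 53.8 CPM, and of the 5 tested (not DES) 0 were called in edgeR, where 0 also had an unadjusted p under 0.05.

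The remaining untested members with 10 or more counts were spread over several libraries. COL8A2 had 0, 0 and 2 counts in wild type and 5, 4 and 4 in the knockout, so its groups did not overlap, and COL4A3 had 3, 2 and 2 in wild type and 1, 4 and 10 in the knockout. COL10A1, COL16A1, COL17A1, COL9A2 and COL4A4 had at most 10 counts in any library, with overlapping groups. The 8 genes at 0 in all libraries were COL14A1, COL20A1, COL23A1, COL24A1, COL4A6, COL5A3, COL6A5 and COL9A1.

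Collagen chains depend on a set of enzymes, chaperones and proteases for folding, secretion and trimming. Of 40 such genes 34 had a count and 29 were tested. Of these 1 rose, 5 fell and 23 did not pass in edgeR, so 17.2% were called lower, beside 7.18% of all tested genes, and 3.45% higher, beside 6.36%. Their median log2 fold change was -0.01. P4HA1, a catalytic subunit of the prolyl 4-hydroxylase that stabilises the triple helix, fell from 102, 98.1 and 88.2 CPM to 65.1, 62.6 and 69.9 CPM. Its fold was 0.685 (95% interval 0.632 to 0.742; edgeR, adjusted p = 2.76e-07), and the groups were far apart. P4HA2, the alternative catalytic subunit, fell from 93.8, 90.6 and 94.0 CPM to 77.8, 78.0 and 77.8 CPM (adjusted p = 4.84e-04).

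The lysyl hydroxylase gene PLOD1 fell from 196 ± 3.02 to 168 ± 3.69 CPM (SD, n = 3; edgeR, adjusted p = 4.10e-04), while PLOD3, which also glucosylates hydroxylysine, had 99.4 to 101.7 CPM in the knockout within a wild-type range of 88.8 to 107.9 CPM. P4HB, the shared subunit of the prolyl 4-hydroxylases, had a fold of 0.935 (edgeR, adjusted p = 0.0559). CRTAP, part of the prolyl 3-hydroxylation complex, fell to 0.912 times its wild-type level (adjusted p = 0.0355), and TLL2, a tolloid-like protease, fell from 1.22 ± 0.360 to 0.570 ± 0.153 CPM (SD, n = 3; edgeR, adjusted p = 0.0318). Neither call was firm: CRTAP did not pass in 4 and TLL2 in 5 of the 6 fits without 1 library. PCOLCE, the enhancer of procollagen C-proteinase, rose from 40.0, 42.1 and 47.7 CPM to 54.1, 53.6 and 55.9 CPM (1.26-fold; edgeR, adjusted p = 6.64e-04). SERPINH1, the collagen chaperone HSP47, was at 270 ± 10.7 and 269 ± 5.49 CPM (SD, n = 3), with a 95% interval of the fold from 0.947 to 1.05.

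Of 14 collagen receptor genes all had a count and 8 were tested, of which 2 rose, beside 6.36% of all tested genes called higher, and the other 6 did not pass. Their median log2 fold change was 0.09. ITGA2, the alpha subunit of the collagen-binding integrin alpha2beta1, rose from 52.3, 50.5 and 47.3 CPM to 57.6, 60.6 and 60.8 CPM, 1.19-fold (95% interval 1.10 to 1.29; edgeR, adjusted p = 0.00303). Every knockout library was above every wild-type one. Its partner ITGB1 had a fold of 1.06 and did not pass (adjusted p = 0.109). DDR2, a receptor tyrosine kinase for fibrillar collagen, rose from 3.43, 2.93 and 4.23 CPM to 5.54, 5.10 and 4.33 CPM (edgeR, adjusted p = 0.0382). The closest values of DDR2 in the groups, 4.23 and 4.33 CPM, nearly met, and it did not pass in DESeq2 (adjusted p = 0.0553) or in 4 of the 6 fits without 1 library. The related DDR1 was at 28.8 to 31.0 CPM in wild type and 26.3 to 27.7 CPM in the knockout and did not pass (adjusted p = 0.198).

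**Figure D5:**
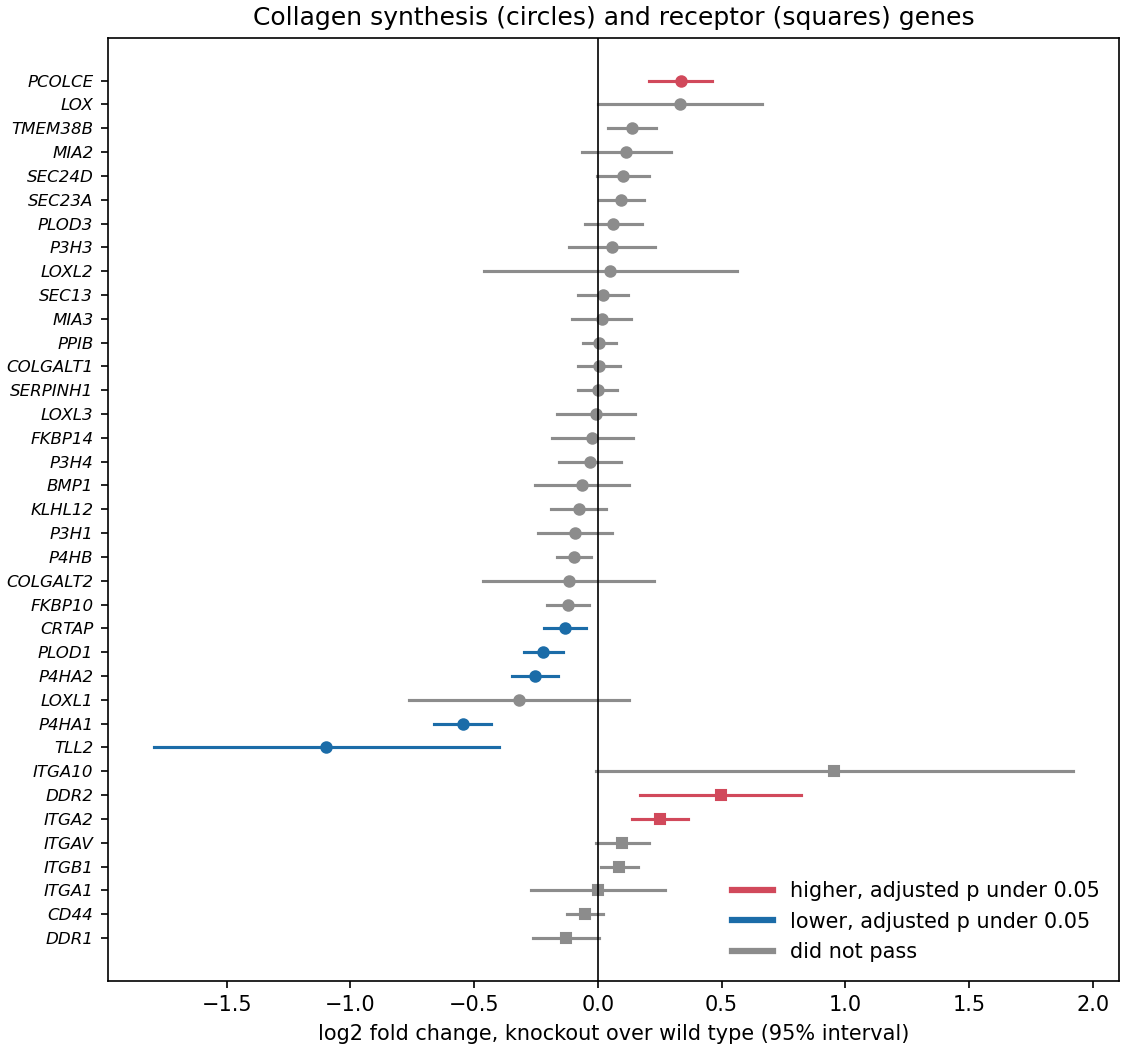
Log2 fold change of the knockout over wild type with 95% intervals for 29 tested collagen synthesis genes (circles) and 8 receptor genes (squares). P4HA1, P4HA2, PLOD1, CRTAP and TLL2 lie below 0 (blue) and PCOLCE, ITGA2 and DDR2 above it (red), while most genes (grey) did not pass. The calls of CRTAP, TLL2 and DDR2 were not firm.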

How the data were processed

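The authors deposited 1 table per library with whole-number read counts per gene symbol, not normalized. Per the labels' protocols, TRIzol RNA was made into polyadenylated libraries with a VAHTS kit and read as 150 bp pairs. The submitters' processing notes name hg38 as the build, with TopHat, edgeR and limma among the tools. How reads were counted, on which annotation and with what strand setting is not given in the sources used here. Groups came from the sample titles. Replicates differed by more than sampling noise (chi-square per degree of freedom 3.11 to 9.30), so each library counted as 1 sample.

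The tests used edgeR 4.0.16 (R 4.3.3). They took TMM scaling, the filterByExpr rule with a minimum count of 10 and a minimum total of 15, a robust quasi-likelihood fit with group alone, and Benjamini-Hochberg adjustment over all 14409 tested genes at 0.05. Standard errors were derived from each F statistic and its fold change. Lengths and coordinates are those of GENCODE 29 on hg38, matched by symbol for 26218 of 28278 genes, and RPKM used the union of annotated exons. Ratios of chains used log2 CPM with a prior count of 2. The fit was tested on simulated data. Alternatives were RLE or library-size scaling, other filters, the replicate block, a GC offset (spline with 5 degrees of freedom, 95.9% of tested genes), DESeq2 1.42.0, limma-voom (limma 3.58.1), no robust option and leaving out each library.

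Values in every library were given by rule for called members, for all tested members (at most 12 by RPKM), for genes carried by 1 library and for their partner chains; the other lists took up to 4 called genes per direction. Outside the rule, RAMP1, ESPNL, CRTAP, P4HB, PLOD3, SERPINH1, ITGB1, DDR1 and the grouping of DCN, LUM, POSTN and SPARC were chosen after their values were seen. Members and lists were chosen with earlier results of these data known.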

Additional observations from a re-analysis of the deposited data

How the results depend on the processing

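COL6A3 passed under all 16 alternatives, at 0.86 to 1.03 on the log2 scale, with adjusted p from 3.95e-13 to 2.42e-04. P4HA1, P4HA2, PLOD1, PCOLCE and ITGA2 also passed under all 16. With the GC offset, alone or with the replicate block, 3044 and 3060 genes were called in place of 1951, of which 1978 and 1995 were higher in place of 917, and 2 collagen genes were higher (COL6A3 and COL27A1) in place of 1; 65.0% of calls were higher with it (65.2% with the block) and 34.6% with library-size scaling, in place of 47.0%, and the other 13 alternatives gave 38% (knockout replicate 2 left out) to 49.95% (wild-type replicate 3 left out). The cause was not tested. Collagen genes called lower numbered 1, but 3 with no filter (COL1A1, COL1A2 and COL3A1) and 0 with a filter of 1 CPM in 3 libraries, which leaves 6 members, with DESeq2 or with limma-voom. DESeq2 called 1 receptor gene in place of 2. Over the fits without 1 library, 950 to 2531 genes were called (361 to 1259 higher, 589 to 1272 lower), 0 to 2 collagen genes were lower and 1 to 3 receptor genes were called. Of the 4 genes carried by 1 library 2 had a total of at least 20. With the replicate block 2193 genes were called, 1 collagen gene higher and 1 lower as without it; same-numbered libraries deviated with correlations of 0.07, -0.00 and 0.03, so the numbers were not taken to pair them, and the block changed no call of a collagen gene. Depth limits the low chains: the 95% intervals of COL5A1, COL5A2 and COL7A1 reach from 0.463 to 2.12 times.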
